A study of Homo sapiens with 8 samples.

Results

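Genes of cholesterol synthesis, sterol uptake, transport and storage, and control by the sterol regulatory element-binding proteins (SREBPs) were examined in MDA-MB-231 cells after silencing of HMGA1. The members were 36 named genes grouped by function, set among 19777 genes measured, and 33 of the 36 had a probe set that the platform annotation assigns to a single gene. Those not analysed here were FDFT1 (squalene synthase), for which no single-gene probe set was named, and CYP51A1 and FADS1, whose probe sets were assigned to several genes. The siHMGA1 group had 4 arrays of cells transfected with an siRNA against HMGA1, and the siCTRL group had 4 arrays of cells transfected with a control siRNA. MDA-MB-231 is an established human breast cancer line of the basal-like, oestrogen receptor-negative kind, and RNA was taken 72 h after transfection in both groups. By the labels the 4 arrays within each group are biological replicates, the methods name the HMGA1 siRNA as siA1_3, and the data therefore describe 1 cell line and 1 targeting siRNA.

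Cholesterol is built from acetyl-CoA through mevalonate and isoprenoid diphosphates, which are joined to squalene, closed to lanosterol and trimmed to cholesterol on the endoplasmic reticulum. When membranes are rich in sterol, INSIG proteins hold the escort SCAP and its SREBP cargo in the endoplasmic reticulum, and when sterol falls SCAP carries the SREBPs to the Golgi, where proteases free the transcription factor domain. SREBF2 is best known for driving the sterol genes and SREBF1 for driving fatty acid genes, while INSIG1 is itself a target of the pathway. Proliferating tumour cells need sterol for membranes and isoprenoids for prenylated proteins.

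The promoter windows of 6 members are printed first. SC5D, MSMO1 and LSS were among the genes that were higher, and INSIG1 and SOAT1 among those that were lower. SREBF2 is shown for its known role as a regulator of sterol genes, and its part in these values was not tested. Each is a RefSeq window of GRCh38.p14 that runs 5′ to 3′ from 250 bases before to 50 bases after an annotated start. SC5D lies at chr11:121292521-121292820 on the plus strand, MSMO1 at chr4:165327419-165327718 on the plus strand and LSS at chr21:46228725-46229024 on the minus strand. INSIG1 lies at chr7:155297628-155297927, SOAT1 at chr1:179293547-179293846 and SREBF2 at chr22:41832855-41833154, all on the plus strand. Capitals mark matches, read on either strand, to CCAAT, the box that nuclear factor Y binds, to CACNCCAC, a core found in many sterol regulatory elements, and to TCACNCCAC, a longer form that contains CACNCCAC.
SC5D: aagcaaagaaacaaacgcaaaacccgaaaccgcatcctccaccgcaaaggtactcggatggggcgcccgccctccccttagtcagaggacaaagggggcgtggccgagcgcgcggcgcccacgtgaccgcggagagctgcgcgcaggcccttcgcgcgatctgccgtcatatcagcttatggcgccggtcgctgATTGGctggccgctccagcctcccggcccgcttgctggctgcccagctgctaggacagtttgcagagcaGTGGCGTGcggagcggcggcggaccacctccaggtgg
MSMO1: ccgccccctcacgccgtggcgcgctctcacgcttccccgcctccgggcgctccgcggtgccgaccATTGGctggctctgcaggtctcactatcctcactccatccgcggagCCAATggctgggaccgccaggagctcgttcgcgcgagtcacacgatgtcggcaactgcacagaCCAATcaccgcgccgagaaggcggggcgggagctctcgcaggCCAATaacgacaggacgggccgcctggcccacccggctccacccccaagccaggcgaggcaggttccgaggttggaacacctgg
LSS: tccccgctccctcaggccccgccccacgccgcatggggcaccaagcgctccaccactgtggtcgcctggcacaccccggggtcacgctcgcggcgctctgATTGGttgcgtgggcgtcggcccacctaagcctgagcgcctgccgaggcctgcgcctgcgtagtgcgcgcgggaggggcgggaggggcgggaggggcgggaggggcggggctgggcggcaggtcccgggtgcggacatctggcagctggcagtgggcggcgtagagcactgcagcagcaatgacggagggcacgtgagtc
INSIG1: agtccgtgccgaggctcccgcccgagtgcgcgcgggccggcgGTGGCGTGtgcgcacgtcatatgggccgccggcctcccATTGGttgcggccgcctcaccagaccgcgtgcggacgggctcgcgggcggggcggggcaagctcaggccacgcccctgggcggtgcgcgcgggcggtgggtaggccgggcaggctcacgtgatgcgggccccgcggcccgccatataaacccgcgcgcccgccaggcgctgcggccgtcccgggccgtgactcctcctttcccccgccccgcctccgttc
SOAT1: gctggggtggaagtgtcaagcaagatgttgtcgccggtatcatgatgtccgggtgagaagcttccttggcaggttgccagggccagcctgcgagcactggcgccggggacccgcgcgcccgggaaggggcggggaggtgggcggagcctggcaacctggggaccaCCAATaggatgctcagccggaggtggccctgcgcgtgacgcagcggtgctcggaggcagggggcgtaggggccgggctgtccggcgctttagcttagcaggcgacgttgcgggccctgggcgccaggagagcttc
SREBF2: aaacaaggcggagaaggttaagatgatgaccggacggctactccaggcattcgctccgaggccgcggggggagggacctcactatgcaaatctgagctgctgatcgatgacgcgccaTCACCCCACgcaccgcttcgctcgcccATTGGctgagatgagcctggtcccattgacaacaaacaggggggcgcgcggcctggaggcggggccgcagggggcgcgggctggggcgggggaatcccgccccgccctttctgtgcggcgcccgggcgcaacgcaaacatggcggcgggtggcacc

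A window was found for 32 of the 36 members, with 43 windows in all, and SQLE, FASN, FDFT1 and ACAT2 are named only. CCAAT stood in a window of 23 of the 32 members (71.9%), against 39.7% of the 27305 genes with a window. CACNCCAC stood in 6 of 32 (18.8%), against 7.05% of all genes, and TCACNCCAC in 1 of 32, the window of SREBF2, against 1.39% of all genes. By the calls described below, CCAAT was present for 13 of 14 members that were higher with a window (92.9%), 3 of 5 that were lower and 7 of 11 that were not called. The most CCAAT matches in a window, 5, were in MVK and NSDHL, which were not called. MSMO1, which was higher, held 4, and FDPS, which was lower, held 3. The windows of INSIG2 and LBR, both lower, held none, and neither did that of SCAP, which was higher. These are counts of letters in a fixed window and describe neither binding nor a cause.

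HMGA1, an architectural chromatin protein and the target of the siRNA, had log2 signals of 10.11, 10.37, 10.29 and 10.57 in the siHMGA1 arrays, against 12.62, 12.84, 12.69 and 12.85 in the siCTRL arrays. Every siHMGA1 array was below every siCTRL array, as the labels require. The log2 fold change was -2.42 (SE 0.0956, limma adjusted p = 2.46e-08), which left 18.7% of the siCTRL signal at this probe set. A second, dimmer HMGA1 probe set gave -0.90 (adjusted p = 0.00107 over all probe sets), and the mean of both gave -1.66. All signals here are RMA values on the log2 scale, and a fold change is siHMGA1 minus siCTRL on that scale. In bulk RNA, fewer cells expressing a gene and less of its RNA per cell cannot be told apart. Arrays within a group correlated at 0.995 to 0.998 and arrays of different groups at 0.989 to 0.992.

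The cell line was checked against marker lists. The 6 genes expected high in MDA-MB-231 had means of 12.25 to 14.61, whereas of the 6 expected low EPCAM (10.13) and GATA3 (9.79) were well above the rest, which had means of at most 6.47. The mean over the 6 expected-high genes was 13.34 to 13.39 in siHMGA1 arrays and 13.44 to 13.51 in siCTRL arrays, with PLAU at a log2 fold change of -0.81. The mean over 5 leukocyte genes was 5.70 to 5.81 in siHMGA1 arrays and 5.61 to 5.69 in siCTRL arrays, and the mean over 4 endothelial genes was 5.59 to 5.69 in siHMGA1 arrays and 5.41 to 5.73 in siCTRL arrays. Of the endothelial genes PECAM1 stood above the rest at a mean of 8.19, and the others had means of at most 5.77. PTPRC was the 1 leukocyte gene called (log2 fold change 0.50), at a mean of 4.92 where signals are close to background, and no endothelial gene was called. The part of these differences in the results below was not tested.

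Among the 33 members, 15 were higher and 5 lower in siHMGA1 cells at a limma adjusted p under 0.05 over all genes, and 13 were not called. The share higher was 45.5%, against 15.8% of all genes and 22.7% of the 12711 genes with a mean signal of 6 or more, a level that all 33 members reached. That level is near the median of all probe sets, 6.07 to 6.12 over the arrays. It is only a floor, and these brighter genes were not matched to the members in signal. The share lower was 15.2%, against 14.7% of all genes and 21.3% of the brighter ones. In 21 members (63.6%) the 4 siHMGA1 arrays did not overlap the 4 siCTRL arrays, against 32.6% of all genes and 47.2% of the brighter ones. The median log2 fold change was 0.18 over the members and 0.01 over all genes, and the members ranged from -1.86 (SOAT1) to 0.78 (SC5D). The stricter thresholds in the methods, 1e-04 for the adjusted p and 1.4 for the size of the log2 fold change, were passed by 0.627% of all genes and by 1 member, SOAT1. With each array centred on housekeeping genes, 20 members were higher and 3 lower, while over all genes 4916 were higher and 2208 lower (69.0% of the calls higher, against 51.8% in the deposited scaling). Of the 10 housekeeping genes used, 2 were themselves called higher and 2 lower. The largest changes among them were falls, in TBP (-0.64) and HPRT1 (-0.34), so this scaling is not an independent reference.

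**Figure D1:**
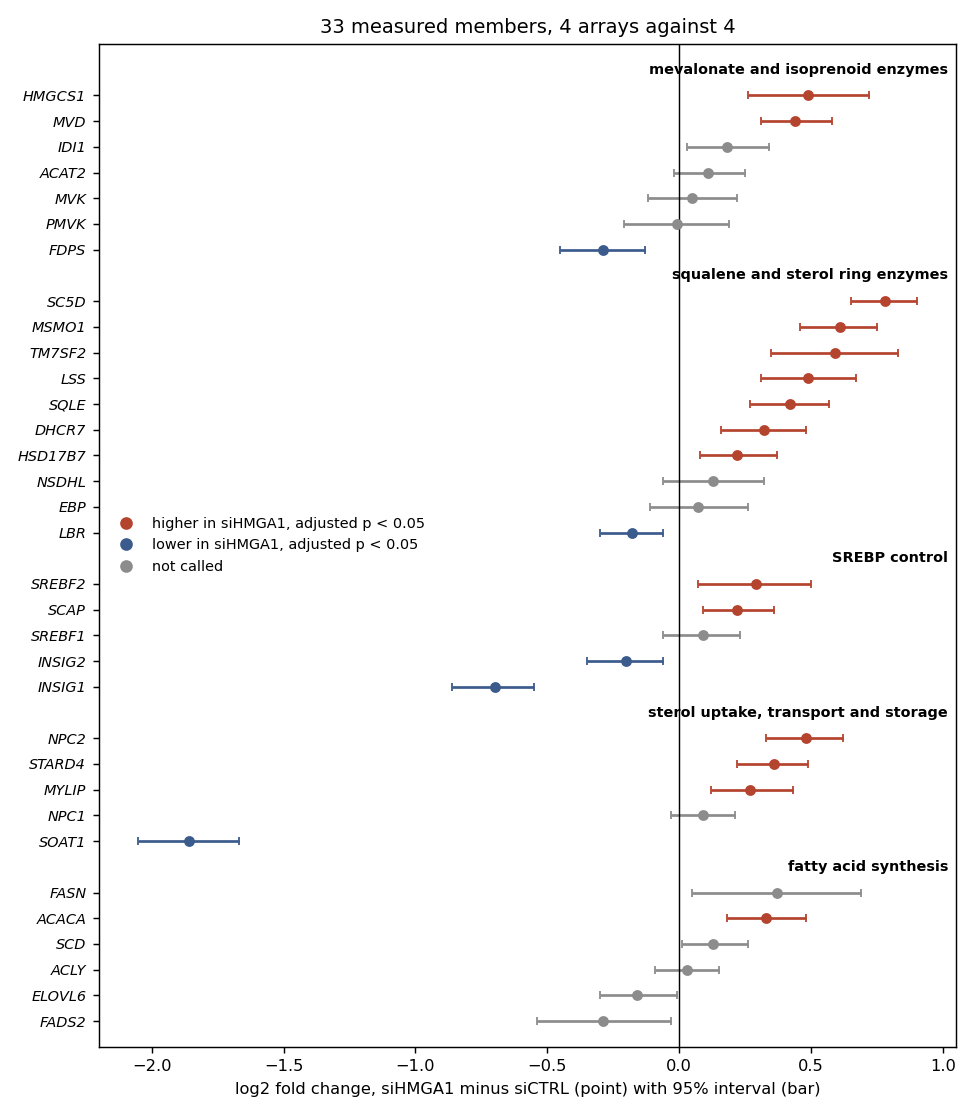
Log2 fold change of the 33 measured members, siHMGA1 minus siCTRL (x axis), grouped by role (y axis); points are limma estimates from 4 arrays per group, bars are 95% intervals and colours give the call at an adjusted p under 0.05. SOAT1 stood apart at -1.86, and 7 of the 10 squalene and sterol ring enzymes were higher. Over all genes 15.8% were higher, and 22.7% of those with a mean signal of 6 or more.

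Of the 10 measured squalene and sterol ring enzymes 7 were higher, 1 was lower and 2 were not called, with a median log2 fold change of 0.37. These enzymes turn squalene into cholesterol. In 8 of the 10 the groups did not overlap, against 32.6% of all genes and 47.2% of the brighter ones. SC5D, a sterol desaturase near the end of the pathway, had signals of 11.49, 11.55, 11.52 and 11.53 in siHMGA1 arrays, against 10.72, 10.80, 10.82 and 10.66 in siCTRL arrays. The siHMGA1 arrays had an SD of 0.0237 and all lay above the siCTRL arrays, and SC5D rose by 0.78 (SE 0.0572, adjusted p = 1.45e-06). Its only other probe set was dim, with a mean of 3.89, and gave 0.06 (adjusted p = 0.762 over all probe sets).

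MSMO1, the methylsterol monooxygenase of the later demethylation steps between lanosterol and cholesterol, had 13.14, 13.26, 13.21 and 13.10 in siHMGA1 arrays, against 12.60, 12.51, 12.70 and 12.47 in siCTRL arrays. It rose by 0.61 (SE 0.0673, adjusted p = 3.32e-05), a 1.52-fold higher signal, and it has 1 probe set. TM7SF2, a sterol reductase acting early in the steps after lanosterol, had 8.07, 8.57, 8.28 and 8.28 in siHMGA1 arrays, against 7.52, 7.94, 7.67 and 7.71 in siCTRL arrays. Replicate 2 was the highest array in both groups for TM7SF2, and the gene rose by 0.59 (SE 0.110, adjusted p = 0.00147). LSS, which closes the sterol rings to lanosterol, had 11.30, 11.53, 11.42 and 11.31 in siHMGA1 arrays, against 10.71, 11.03, 10.88 and 10.97 in siCTRL arrays. The groups did not overlap, LSS rose by 0.49 (SE 0.0819, adjusted p = 6.67e-04), and its dimmer probe sets gave 0.74 (adjusted p = 1.72e-04) and 0.19 (adjusted p = 0.0750).

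SQLE, squalene epoxidase, had 10.39, 10.51, 10.53 and 10.38 in siHMGA1 arrays, against 10.13, 10.06, 10.03 and 9.90 in siCTRL arrays. The groups were apart, the rise was 0.42 (adjusted p = 5.16e-04), and 3 of its 4 probe sets were called higher. DHCR7, the reductase of the last step to cholesterol, had 11.13, 11.34, 11.14 and 11.24 in siHMGA1 arrays, against 10.80, 10.88, 11.05 and 10.83 in siCTRL arrays. It rose by 0.32 (adjusted p = 0.00538), and its other probe set gave 0.36 (adjusted p = 0.00592). HSD17B7, the ketosteroid reductase of the demethylation steps, ranged from 10.58 to 10.69 in siHMGA1 arrays and from 10.31 to 10.54 in siCTRL arrays. Its rise of 0.22 (adjusted p = 0.0236) rests on 1 probe set whose probes may also detect other transcripts, and the call was lost without siHMGA1 array 1 or 3 or siCTRL array 2 or 4 (adjusted p 0.0616 to 0.0717).

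LBR, a nuclear envelope protein that carries the same sterol reductase activity as TM7SF2, moved the other way. Its signals were 12.32, 12.25, 12.37 and 12.35 in siHMGA1 arrays, against 12.52, 12.43, 12.53 and 12.52 in siCTRL arrays. It fell by 0.18 (SE 0.0563, adjusted p = 0.0303), and the call was lost without siHMGA1 array 1, 2 or 4, without siCTRL array 3 or 4 (adjusted p 0.0542 to 0.0907), with housekeeping centring (-0.10, adjusted p = 0.208) and in the fit over all probe sets (0.0591). NSDHL, the dehydrogenase of the demethylation steps, gave 0.13 (95% interval -0.06 to 0.32, adjusted p = 0.326), with 10.31 to 10.40 in siHMGA1 arrays inside a wider siCTRL range of 10.04 to 10.42. The second NSDHL probe set, a dimmer one, was higher by 0.31 (adjusted p = 0.00843) with groups apart. EBP, the sterol isomerase, gave 0.07 (interval -0.11 to 0.26, adjusted p = 0.600), and its other 3 probe sets lay between -0.12 and 0.23 with none called.

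**Figure D2:**
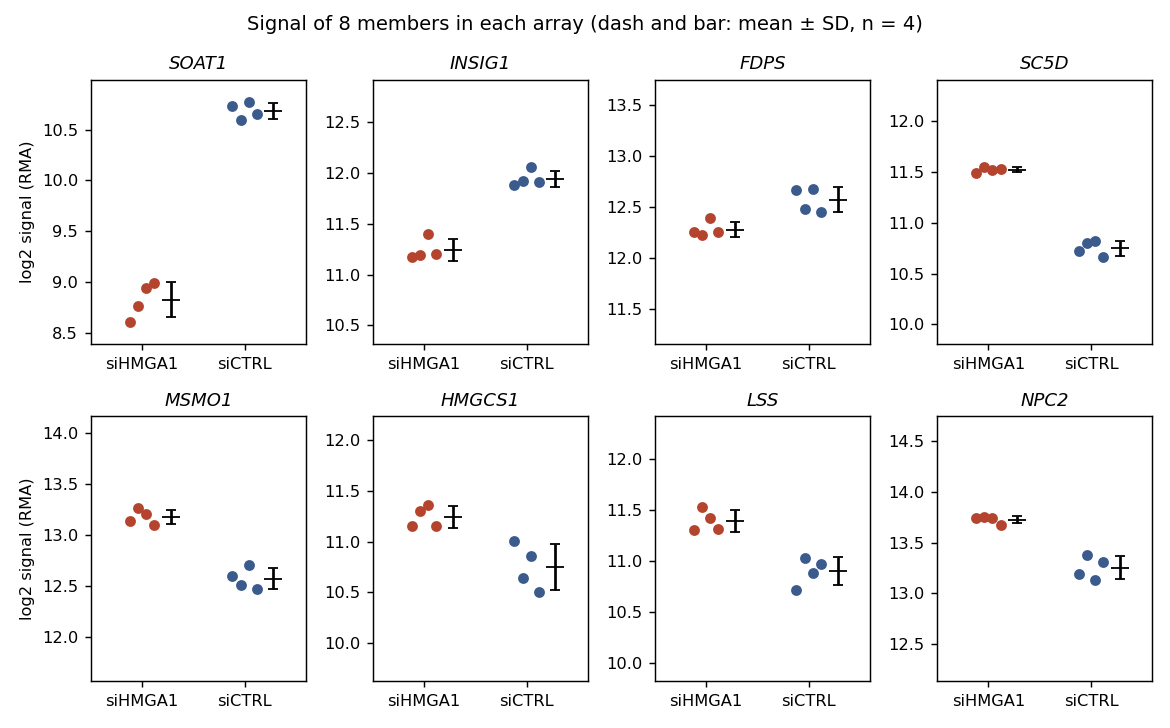
RMA log2 signal (y axis, 1 panel per gene, each spanning the same width) of 8 members in each of the 4 siHMGA1 and 4 siCTRL arrays; points are arrays and dashes with bars are means ± SD. For all 8 genes the siHMGA1 and siCTRL arrays did not overlap, with SOAT1, INSIG1 and FDPS lower and the other 5 higher in siHMGA1.

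In the 7 mevalonate and isoprenoid enzymes, 2 were higher, 1 was lower and 4 were not called, with a median of 0.11. The share higher was 28.6%, against 15.8% of all genes and 22.7% of the brighter ones. The share lower was 14.3%, against 14.7% and 21.3%. HMGCS1, a synthase of the steps before mevalonate, had 11.15, 11.30, 11.36 and 11.15 in siHMGA1 arrays, against 11.01, 10.64, 10.86 and 10.50 in siCTRL arrays. The siCTRL arrays spread over a wider range than the siHMGA1 arrays, yet all lay below them. HMGCS1 rose by 0.49 (SE 0.104, adjusted p = 0.00343), and its dimmer second probe set by 0.81 (adjusted p = 4.23e-04).

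MVD, which decarboxylates mevalonate diphosphate to the first isoprenoid, had 6.52, 6.67, 6.54 and 6.57 in siHMGA1 arrays, against 6.04, 6.17, 6.16 and 6.17 in siCTRL arrays. It rose by 0.44 (SE 0.0606, adjusted p = 1.62e-04) at the lowest mean signal of the 33 members, 6.35. The siCTRL signals of MVD lay close to the median of all probe sets on those arrays, 6.07 to 6.10, and low signals are compressed by background. FDPS, the farnesyl diphosphate synthase at the branch to sterols and prenylated proteins, had 12.25, 12.22, 12.39 and 12.25 in siHMGA1 arrays, against 12.67, 12.48, 12.68 and 12.45 in siCTRL arrays. FDPS was the 1 gene of this group that fell, by 0.29 (SE 0.0715, adjusted p = 0.00848), and it has 1 probe set.

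IDI1, the isomerase of the isoprenoid diphosphates, had 12.07, 12.10, 12.12 and 12 in siHMGA1 arrays, against 12.03, 11.82, 11.96 and 11.76 in siCTRL arrays. Only siCTRL array 1 reached into the siHMGA1 range, the difference was 0.18 (interval 0.03 to 0.34, adjusted p = 0.0756), and it was called without that array (0.23, adjusted p = 0.0243). A dimmer IDI1 probe set was higher by 0.34 (adjusted p = 0.00340), and all 4 gave positive differences. ACAT2, the cytosolic thiolase of the first step, had groups apart (11.64 to 11.81 in siHMGA1 and 11.54 to 11.62 in siCTRL) but a difference of 0.11 (interval -0.02 to 0.25, adjusted p = 0.198). The kinases MVK and PMVK gave 0.05 (interval -0.12 to 0.22) and -0.01 (interval -0.21 to 0.19), with overlapping arrays in both.

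The 5 genes of SREBP control went in both directions, with 2 higher and 2 lower. The share higher was 40.0%, against 15.8% of all genes and 22.7% of the brighter ones. The share lower was 40.0%, against 14.7% and 21.3%. INSIG1, the sterol-responsive anchor of the SCAP complex, had 11.17, 11.19, 11.40 and 11.20 in siHMGA1 arrays, against 11.88, 11.92, 12.06 and 11.91 in siCTRL arrays. All siHMGA1 arrays were below all siCTRL arrays, with replicate 3 the highest in each group. INSIG1 fell by 0.70 (SE 0.0704, adjusted p = 1.48e-05), to 61.4% of the siCTRL signal, and its other probe sets gave log2 fold changes of -0.65 (adjusted p = 1.63e-05) and -0.74 (adjusted p = 1.20e-04). INSIG2, its paralogue, had 9.69, 9.64, 9.77 and 9.74 in siHMGA1 arrays, against 10, 9.81, 10 and 9.83 in siCTRL arrays. The groups were apart but the fall was small, at 0.20 (adjusted p = 0.0388), and the call was lost when any 1 of the siHMGA1 arrays or siCTRL array 1 or 3 was left out (adjusted p 0.0516 to 0.107). It was also lost with housekeeping centring (-0.12, adjusted p = 0.197), array weights (0.0627), the methods' t-test (0.0519) and the fit over all probe sets (0.0651).

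SCAP, the sterol-sensing escort, had 10.08, 10.16, 9.99 and 10 in siHMGA1 arrays, against 9.84, 9.88, 9.77 and 9.85 in siCTRL arrays. It rose by 0.22 (SE 0.0605, adjusted p = 0.0142) with groups apart. SREBF2, the regulator of the sterol genes, had 8.68, 9.14, 8.95 and 8.88 in siHMGA1 arrays, against 8.44, 8.75, 8.64 and 8.68 in siCTRL arrays. The lowest siHMGA1 array lay inside the siCTRL range, the difference of 0.29 was called at an adjusted p of 0.0439, and the call was lost without siHMGA1 array 2, 3 or 4 or siCTRL array 1, 3 or 4 (adjusted p 0.0620 to 0.123), in the methods' t-test (0.126) and in the fit over all probe sets (0.0609). Its other probe sets gave 0.20 and 0.19, neither called. SREBF1, the regulator best known for lipogenic genes, gave 0.09 (interval -0.06 to 0.23, adjusted p = 0.375), with -0.20 at a dimmer second probe set.

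All 5 genes of sterol uptake, transport and storage had groups that did not overlap, against 32.6% of all genes and 47.2% of the brighter ones. Of the 5, 3 were called higher and 1 lower. SOAT1, the acyltransferase that turns free cholesterol into esters for storage in lipid droplets, had 8.61, 8.77, 8.94 and 8.99 in siHMGA1 arrays, against 10.73, 10.59, 10.77 and 10.65 in siCTRL arrays. The gap between the highest siHMGA1 array and the lowest siCTRL array exceeded the spread of either group. SOAT1 fell by 1.86 (SE 0.0858, adjusted p = 6.24e-08), to 27.6% of the siCTRL signal, and its other probe sets gave -1.98 (adjusted p = 5.71e-08) and -1.91 (adjusted p = 9.01e-08).

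NPC2, which passes cholesterol out of lysosomes together with NPC1, had 13.74, 13.75, 13.74 and 13.67 in siHMGA1 arrays, against 13.19, 13.38, 13.13 and 13.31 in siCTRL arrays. It rose by 0.48 (SE 0.0663, adjusted p = 1.76e-04). Its partner NPC1 had 11.60 to 11.70 in siHMGA1 arrays and 11.49 to 11.58 in siCTRL arrays, a difference of 0.09 (interval -0.03 to 0.21, adjusted p = 0.242), and the dimmer NPC1 probe sets gave -0.21 to 0.02. STARD4, a cytosolic sterol carrier, had 11.24, 11.30, 11.27 and 11.11 in siHMGA1 arrays, against 10.96, 10.85, 10.87 and 10.84 in siCTRL arrays. It rose by 0.36 (SE 0.0617, adjusted p = 8.93e-04) on its 1 probe set. MYLIP, the ubiquitin ligase that marks lipoprotein receptors for degradation, had 10.43, 10.32, 10.49 and 10.35 in siHMGA1 arrays, against 10.26, 10.03, 10.16 and 10.05 in siCTRL arrays. It rose by 0.27 (adjusted p = 0.0109), and 4 of its 6 probe sets were called higher.

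In the 6 measured fatty acid genes 1 was higher and 5 were not called, with a median of 0.08. The share higher was 16.7%, against 15.8% of all genes and 22.7% of the brighter ones. None was lower, against 14.7% and 21.3%. ACACA, which makes malonyl-CoA, had 10.89, 11.05, 10.87 and 10.93 in siHMGA1 arrays, against 10.48, 10.61, 10.63 and 10.71 in siCTRL arrays. It rose by 0.33 (SE 0.0676, adjusted p = 0.00279), but the dim second probe set gave -0.11 and the mean of both 0.11 (adjusted p = 0.157). FASN, the fatty acid synthase, had 10.38, 10.89, 10.52 and 10.67 in siHMGA1 arrays, against 9.79, 10.45, 10.37 and 10.36 in siCTRL arrays. Replicate 1 was the lowest array in both groups and the siHMGA1 array of that number overlapped the siCTRL range, and the difference was 0.37 (interval 0.05 to 0.69, adjusted p = 0.0794). With the replicate number as a block the FASN difference was called (adjusted p = 0.00709), and the titles number the experiments 1 to 4 in both groups without saying whether a number marks a shared culture or day.

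FADS2, a desaturase of polyunsaturated fatty acids, had 9.23, 9.25, 9.16 and 9.22 in siHMGA1 arrays, against 9.18, 9.86, 9.41 and 9.56 in siCTRL arrays. The siHMGA1 arrays were close together while siCTRL array 1 lay among them, the difference was -0.29 (interval -0.54 to -0.03, adjusted p = 0.0863), and it was called without siCTRL array 1 (-0.40, adjusted p = 0.00986). The dimmer FADS2 probe set was lower by 0.35 in siHMGA1, with an adjusted p of 0.00492. ELOVL6, an elongase of saturated fatty acids, gave -0.16 (interval -0.30 to -0.01, adjusted p = 0.106), and without siCTRL array 2 it was called (-0.20, adjusted p = 0.0409). Its other probe sets gave -0.18 and 0.13, neither called and the second with groups apart in the opposite direction, and the mean of all 3 gave -0.07 (adjusted p = 0.476). SCD, the stearoyl-CoA desaturase, gave 0.13 (interval 0.01 to 0.26, adjusted p = 0.113) at its brightest probe set and -0.11 to -0.03 at the other 3, and ACLY, the source of cytosolic acetyl-CoA, gave 0.03 (interval -0.09 to 0.15), with 1 of its 2 other probe sets called higher at 0.34 (adjusted p = 0.0362).

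**Figure D3:**
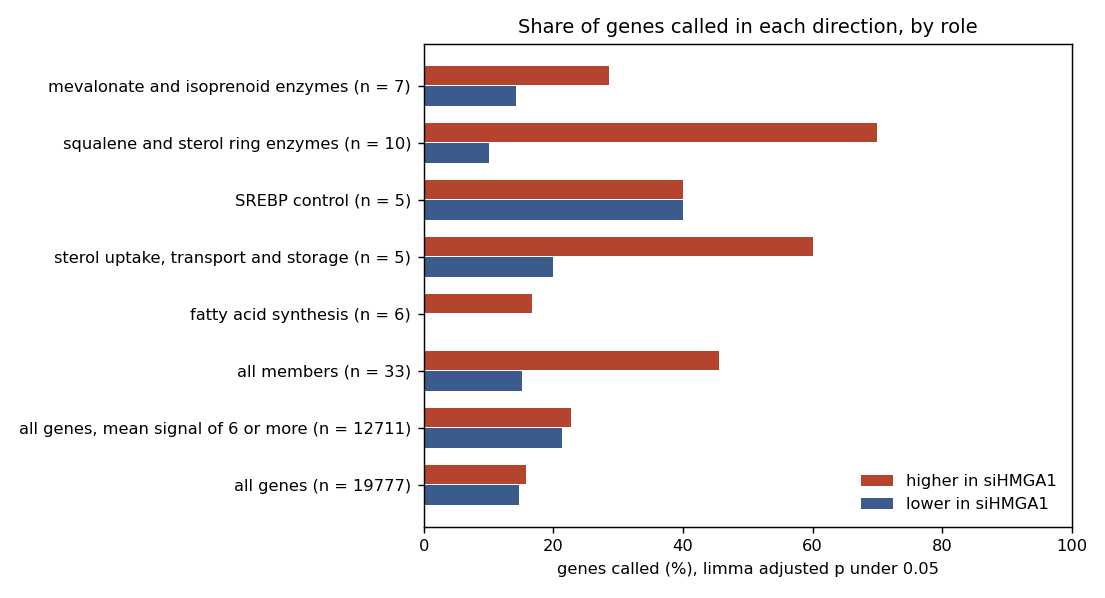
Share of genes called higher or lower in siHMGA1 (x axis, percent, limma adjusted p under 0.05) for each role of the members, all 33 members, the 12711 genes with a mean signal of 6 or more and all 19777 genes (y axis, n in brackets). The share higher was 70.0% in the squalene and sterol ring enzymes and 16.7% in fatty acid synthesis. It was 15.8% of all genes and 22.7% of those with a mean of 6 or more, a level that all 33 members reached. The comparison genes were not matched to the members in signal.

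The 33 members were read by 76 probe sets, and 21 members had more than 1. No member had probe sets called in opposite directions. The probe sets of SOAT1, INSIG1, HMGCS1 and DHCR7 were all called, each gene's in 1 direction, whereas those of MVK, EBP, NPC1, SCD, FASN, SREBF1, SREBF2 and ELOVL6 were never called in the fit over all probe sets. The SC5D call was lost without probe sets that may detect several transcripts, a setting that leaves only its dim one (0.06, limma adjusted p = 0.742). With all its probe sets averaged the SC5D call was kept (0.42, adjusted p = 2.56e-04). Averaging instead ended the ACACA call (0.11, adjusted p = 0.157).

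**Figure D4:**
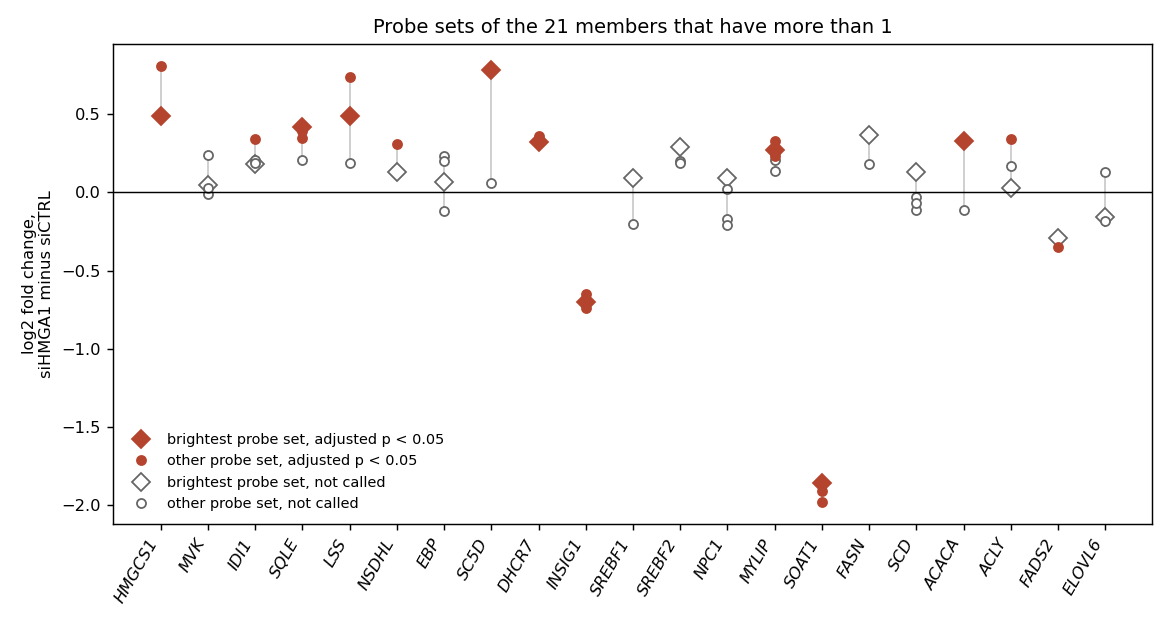
Log2 fold change, siHMGA1 minus siCTRL (y axis), of every probe set of the 21 members that have more than 1 (x axis); diamonds are the brightest probe set, circles the others, and filled symbols passed an adjusted p under 0.05 over all probe sets. The 3 SOAT1 probe sets lay between -1.98 and -1.86, while the SC5D probe sets lay at 0.78 and 0.06.

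The siCTRL arrays varied among themselves in these genes. Over the 33 members, the deviations of siCTRL arrays 1 and 2 from their group mean had r = -0.85, those of arrays 1 and 4 r = -0.81, those of arrays 2 and 3 r = -0.63, those of arrays 3 and 4 r = -0.51, those of arrays 2 and 4 r = 0.60 and those of arrays 1 and 3 r = 0.31. Over all genes the 4 negative pairs gave -0.60 to -0.42, arrays 2 and 4 gave 0.14 and arrays 1 and 3 gave -0.02. As examples chosen after their values were seen, in FDPS, MSMO1, HMGCS1, IDI1, NSDHL and ELOVL6 arrays 1 and 3 were the 2 highest of the siCTRL group, and in LSS, NPC2, TM7SF2 and FADS2 they were the 2 lowest. These correlations run over genes measured on the same normalised arrays, deviations from a shared mean are tied to each other, and they are given as a description. In limma's array weights siCTRL array 1 had the lowest weight, 0.433, and the others had 0.822 to 1.65.

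Other genes around the pathway were read from 6 lists that hold no member, with 93 of 106 genes measured. Of these 22 were higher and 10 lower (23.7% and 10.8%), with a median of 0.05. Over all genes 15.8% were higher and 14.7% lower, and over genes with a mean signal of 6 or more 22.7% and 21.3%. The share higher was thus near that of the brighter genes, and 7 of the 93 had a mean under 6. The counts per list below stand beside the same shares. Among 10 accessory factors and flanking enzymes of sterol synthesis 5 were higher and none lower, and the largest rises were in EBPL (0.65, adjusted p = 9.68e-06), a relative of EBP, CYB5A (0.58, adjusted p = 1.73e-05), an electron carrier that serves sterol desaturation, and ERG28 (0.44), a scaffold of the demethylation enzymes known from yeast. Without probe sets that may detect several transcripts the ERG28 call was lost (0.15, adjusted p = 0.188).

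In the isoprenoid branch and prenylation list 3 of 14 genes were higher and 4 lower. The fall was largest in PGGT1B (-0.87, adjusted p = 6.97e-05) and FNTB (-0.65, adjusted p = 0.00223), subunits of the transferases that attach isoprenoids to proteins, while PDSS2, of ubiquinone synthesis, rose by 0.32. Among 16 genes of SREBP processing and turnover 4 were higher and 1 lower. SEC24D, of the coat that carries cargo from the endoplasmic reticulum, had 7.76 to 8.27 in siHMGA1 arrays and 8.99 to 9.14 in siCTRL arrays, a fall of 0.96 (adjusted p = 2.50e-05), and averaging all of its probe sets gave -0.56. ERLIN2 and PAQR3 each rose by 0.37, and the ERLIN2 call was lost without probe sets that may detect several transcripts (0.09, adjusted p = 0.447).

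In the export and liver X receptor list 1 of 9 genes was called, the transporter ABCA7 (0.62, adjusted p = 2.66e-05). Of 18 genes of lipoprotein receptors, sterol transfer and esters 4 were higher and 2 lower. GRAMD1C, a sterol transfer protein, fell by 0.83, with siHMGA1 arrays at 5.74 to 5.76, a level near background where differences are compressed, and siCTRL arrays at 6.26 to 6.91. LIPA, the lysosomal lipase of cholesterol esters, rose by 0.33 and GRAMD1A, a relative of GRAMD1C, by 0.27, but averaging the probe sets of each gene ended both calls (0.10, adjusted p = 0.266 for LIPA, and 0.10, adjusted p = 0.176 for GRAMD1A). Of 26 fatty acid partners 5 were higher and 3 lower, led by the elongase ELOVL7 (0.97, adjusted p = 4.56e-06), LPIN1, a phosphatidate phosphatase (0.69), and malic enzyme ME1 (0.54), a source of NADPH.

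A two-sided exact permutation test over arrays gave p = 0.0286, the smallest that 4 arrays against 4 allow, for HMGA1 and for each of the 21 members whose groups did not overlap. Any gene without overlap must get this value, and 32.6% of all genes had none, so the test adds nothing to the non-overlap. The titles number the experiments 1 to 4 in both groups, the labels do not say how their cultures were separated, and the spread behind every p-value is that of these arrays only, which may be in part technical.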

How the data were processed

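The deposited tables hold log2 signals of probe sets on Affymetrix hgu133plus2 arrays, which the authors made with RMA (background correction, quantile normalisation and summary per probe set, with RMA and affy in the submitters' processing notes), which evens out total signal across arrays. The methods give 4 biological replicates in one section and 3 in another, and a different chip name. The labels give 4 arrays per group, and all 8 were used. Array means were 6.57 to 6.58. The number of arrays limits the precision, and low signals are compressed by background.

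The table lists 54675 probe sets, and the annotation gave 1 gene for 41091, several for 1801, no name for 11721 and a control role for 62. The platform annotation was checked against RefSeq (54 identifiers were unmatched). Coordinates belong to the RefSeq promoter windows only. Where a gene had several probe sets (10523 genes), the brightest by its mean signal over all arrays was used. limma (version 3.58.1, R 4.3.3) compared 4 siHMGA1 with 4 siCTRL arrays with Benjamini-Hochberg adjustment over 19777 genes, and probe sets of 1 gene were compared in a second fit over all probe sets. The script was tested on simulated data.

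The members and lists were chosen with earlier results of these data known. All measured members were named, of the other lists up to 3 called genes with the largest change, and the promoters and members shown in single panels were picked after their values were seen. Alternatives were the replicate block, other probe set rules, cyclic loess, housekeeping centring (10 genes), a filter at a mean of 6, a trended robust fit, array weights, the methods' t-test, and leaving out each array. The same alternatives for the genes outside the members were added after seeing the data.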

Additional observations from a re-analysis of the deposited data

Results flagged for a closer look

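In 4 of the 66 sets of 4 arrays examined (33 members in each group), 1 array lay far from the other 3, judged by its gap to the nearest array as a share of the range of the set, and chance alone gives about 1 in 20. INSIG1 in siHMGA1 array 3 was the highest of its group at 11.40 (share 0.890), and without it INSIG1 fell by 0.76 (adjusted p = 1.7e-05). MVD in siCTRL array 1 was the lowest at 6.04 (share 0.933), and without it MVD rose by 0.41 (adjusted p = 4.25e-04). LBR in siCTRL array 2 was the lowest at 12.43 (share 0.833), and without it LBR fell by 0.20 (adjusted p = 0.0277). FASN in siCTRL array 1 was the lowest at 9.79 (share 0.867), and without it the FASN difference was 0.22 (adjusted p = 0.161), 0.37 with all arrays.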

How the results depend on the processing

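The count of 15 higher members ranged over 13 to 15 when 1 array was left out and over 10 (24 members left) to 20 in the other settings. The 5 lower members became 3 with housekeeping centring, 3 in the fit over all probe sets, 6 with averaged probe sets, with cyclic loess and without probe sets that may detect several transcripts, 7 in the trended robust fit, and 3 to 6 when 1 array was left out, with 3 without siHMGA1 array 1, 2 or 4 or siCTRL array 3. The methods set the study's thresholds for limma, in which SOAT1 passed them (adjusted p = 6.24e-08). Their t-test is named for the data in general and not for the arrays. With that t-test the 1 member past the thresholds became 0, as SOAT1 had an adjusted p of 1.30e-04. At 0.05 the t-test called 14 members higher and 4 lower. The median of the members, 0.18, was 0.11 without probe sets that may detect several transcripts and 0.26 with housekeeping centring, which also raised the 22 higher genes outside the members to 34. Averaging all probe sets of a gene turned the sign for SREBF1 (-0.06), NPC1 (-0.07) and SCD (-0.02), cyclic loess turned it for ACLY (-0.01), and housekeeping centring for PMVK (0.07). When 1 array was left out PMVK ranged from -0.09 to 0.05 and MVK from -0.00 to 0.09. None of these 5 genes nor MVK was called in the deposited scaling, and the cause of these shifts was not tested.

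In the fit with the replicate block 16 members were higher and 5 lower, and FASN was the call gained. The deviations of same-numbered arrays correlated at 0.07, 0.27, 0.11 and -0.12, and only the arrays numbered 2 correlated best with their own number. The titles number experiments in both groups but give no shared culture or day, so the arrays were compared unpaired and whether the numbers pair them is not known. HMGCS1, MVD, FDPS, SQLE, LSS, TM7SF2, MSMO1, DHCR7, INSIG1, SCAP, STARD4, NPC2, MYLIP and SOAT1 kept their direction and call in every alternative that gave a value for them.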
